A study of Mus musculus with 4 samples.

Results

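Stromal fibroblasts are the matrix-producing cells that surround the ducts of the mammary gland, and 164 of the 25950 cells kept from mouse mammary glands met a rule for them. A cell was taken when it held at least 1000 UMIs (unique molecular identifiers, one per captured transcript) from at least 500 genes, with at most 15% of UMIs from mitochondrial genes. Per 10,000 of its UMIs it needed at least 20 of type I collagen (Col1a1 and Col1a2), type III collagen (Col3a1) and the proteoglycan decorin (Dcn) together. It also needed under 10 of the basal keratins Krt5 and Krt14, under 10 of the hormone-sensing genes Esr1, Prlr, Areg and Foxa1, and under 10 of the secretory genes Wfdc18, Csn3, Elf5 and Kit. The cells were thus selected on these measured levels, so their levels of the rule's genes are a description and not a result.

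Mammary fibroblasts secrete fibrillar collagens, which assemble into fibres outside the cell, and proteoglycans and glycoproteins that space, bind and cross-link them. They release growth factors such as IGF1, HGF and FGF10 that act on receptors of the neighbouring epithelium, and binding proteins that hold such factors back. Fibroblasts of many mouse tissues carry one gene programme around vessels and in the outer connective tissue (adventitial, with Pi16, Dpp4 and Ly6c1) and another within the tissue (interstitial, with Col15a1 and Sparcl1). Like most cells, they answer type I interferon with a set of antiviral genes, among them Isg15 and the Ifit family.

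Each of the 4 groups was 1 library of single-cell RNA from mouse mammary glands, with transcripts read at their 3′ ends by the 10x v3.1 kit. The groups were Y541S given giredestrant, Y541S given vehicle, WT given giredestrant and WT given vehicle, where Y541S is a mutant allele of Esr1, the estrogen receptor alpha gene. Giredestrant, an oral antagonist and degrader of that receptor, was given at 30 mg/kg daily for 4 days, and the vehicle on the same days. All mice were 6 months old and all carried E2 and P4 (estradiol and progesterone) pellets, the controls included. The labels do not give the number of animals pooled per library, the number of mutant copies, or the cells that carry the allele. Cells were sorted as EpCAM+, a surface marker of epithelium, and labelled as mature luminal or mammary epithelial cells, so fibroblasts are cells that came through a sort for another type.

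With 1 library a group there was no replicate and no test, and each interval below is a 95% interval for counting error only. The libraries held from 70781982 to 132660456 UMIs, and the median kept cell had 6267.5 UMIs in Y541S giredestrant, 15290 in Y541S vehicle, 21927 in WT giredestrant and 10868 in WT vehicle. Fibroblasts had median depths of 6288.5, 12224, 11093 and 13247 UMIs in the same order. Of the kept barcodes, 81 occurred in more than one library, and 0 of them were fibroblasts. A doublet caller at its automatic threshold marked 0.0282% of cells in WT vehicle, too few for a working call, and marked 0 fibroblasts in any library. A removal of the highest-scoring cells up to an assumed rate would take 28 of the 164 fibroblasts, 14 of them in Y541S giredestrant, 12 in Y541S vehicle, 0 in WT giredestrant and 2 in WT vehicle.

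Fibroblasts made up 0.464% of kept cells in Y541S giredestrant (40 of 8622, exact interval 0.332 to 0.631%) and 0.513% in Y541S vehicle (37 of 7217, 0.361 to 0.706%). In WT the share was 1.16% with giredestrant (35 of 3029, 0.806 to 1.6%) and 0.734% with vehicle (52 of 7082, 0.549 to 0.962%). The intervals of giredestrant and vehicle overlapped within each genotype. The EpCAM+ gate can set these shares, so they are not shares of the gland. The rule's limits on epithelial genes can set them too. Of the cells past the collagen and decorin sum, these limits removed 24 of 64 in Y541S giredestrant and 43 of 80 in Y541S vehicle. In WT they removed 3 of 38 with giredestrant and 8 of 60 with vehicle.

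The label was checked against 14 fibroblast markers that the rule did not use, and all 14 were at least 10 times higher in fibroblasts than in the other cells of each library. Their summed level was 13789 CPM (UMIs scaled to a common library total) in fibroblasts of Y541S giredestrant, 13830 in Y541S vehicle, 12467 in WT giredestrant and 8288 in WT vehicle, against 149.7, 145.7, 92.9 and 251.5 CPM in the other cells of those libraries. Pdgfra, the PDGF receptor of mesenchymal cells, was found in 75% of fibroblasts and in 2.36% of other cells. Lum, the proteoglycan lumican, was found in 83.5% of fibroblasts and in 0.147% of other cells. Epcam, after each cell was thinned to 2000 UMIs, was seen in 5.70% of fibroblasts in Y541S giredestrant, 3.27% in Y541S vehicle, 0% in WT giredestrant and 9.24% in WT vehicle, against 77.7%, 80.7%, 77.9% and 70.1% of other cells. Without thinning the shares of fibroblasts were 10.0%, 8.11%, 2.86% and 17.3%.

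Markers of other cell types were mostly at or below the level of the other cells. All 7 T and NK cell markers were at 0 UMIs. Macrophage markers summed to 6.96 CPM in fibroblasts and 84.1 CPM in other cells, with Ptprc, C1qb, Lyz2 and Tyrobp at 0. Endothelial markers summed to 76.0 and 85.4 CPM, with Emcn, Cldn5 and Tie1 at 0. Pericyte markers summed to 44.4 CPM in fibroblasts and 75.6 CPM in other cells. Adipocyte markers were higher, at 5.89 CPM in fibroblasts and 0.6 CPM in other cells, but Adipoq, Plin1, Cidec and Lep, which define that type, were at 0. Mesothelial markers were counted only in WT giredestrant, at 103 CPM, where 1 cell reached 10 UMIs per 10,000 of them. Schwann cell markers summed to 219 CPM in fibroblasts of WT giredestrant, where 6 of 8 stood above the other cells and 1 cell reached 10 per 10,000, and to 17.0 to 35.2 CPM in the other 3 libraries, against 133 to 197 CPM in other cells. Hair follicle and skin markers summed to 117 CPM in Y541S giredestrant, 74.4 in Y541S vehicle, 60.4 in WT giredestrant and 435 in WT vehicle. Basal epithelial markers outside the rule summed to 285, 183, 83.1 and 1113 CPM in the same order. Over all libraries they were at 546 CPM in fibroblasts and 5196 CPM in other cells, and 17 fibroblasts reached 10 per 10,000. Epithelial markers summed to 164, 1325, 98.2 and 224 CPM in Y541S giredestrant, Y541S vehicle, WT giredestrant and WT vehicle, and 1 cell of Y541S vehicle carried most of the second value.

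**Figure D1:**
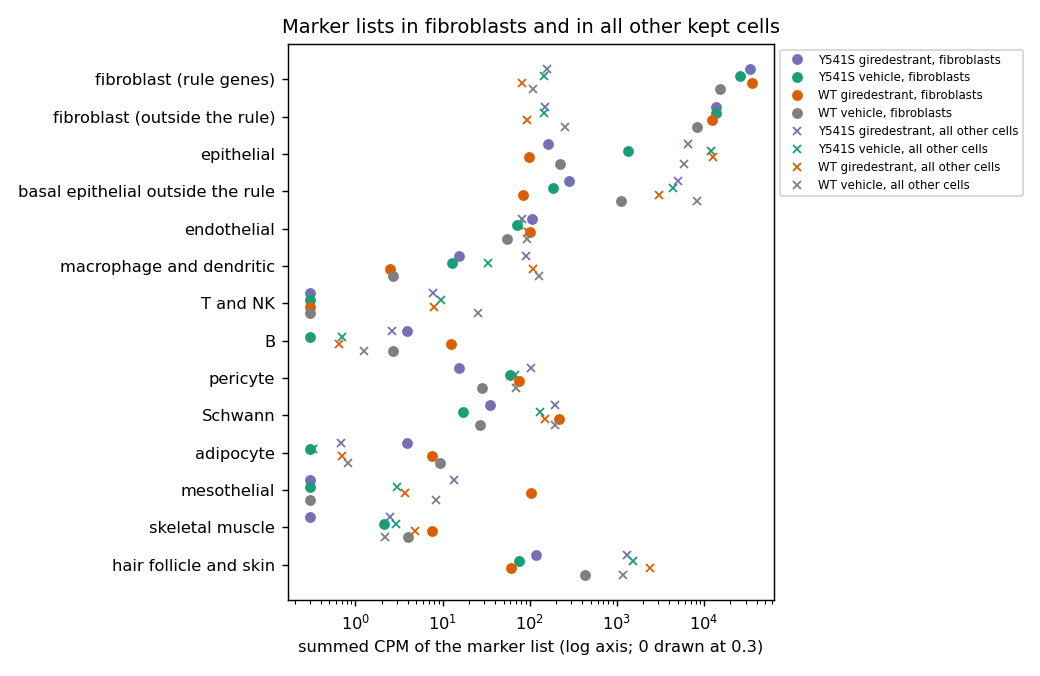
Summed level of each marker list in CPM (log axis, lists at 0 drawn at 0.3) in fibroblasts (circles) and in all other kept cells (crosses) of the 4 libraries. The markers outside the rule sit between 8288 and 13830 CPM in fibroblasts, against 92.9 to 251.5 CPM in other cells.

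Not every cell taken by the rule was a collagen producer. In 11 cells the 3 collagen genes together were under 1 UMI per 10,000, so that Dcn alone passed the threshold: 2 in Y541S giredestrant, 1 in Y541S vehicle, 0 in WT giredestrant and 8 in WT vehicle, where they were 15.4% of the cells taken. All 8 of the WT vehicle cells held Krt25 or Krt28, keratins of the hair follicle's inner sheath, and their median depth was 21039 UMIs. The markers outside the rule reached at most 6.89 UMIs per 10,000 in the 11 cells, against a median of 117 in the other 153. The data go against the label for these 11 cells, so the counts over gene lists are also given for the 153 cells with collagen. With collagen, the shares were 0.441% in Y541S giredestrant, 0.499% in Y541S vehicle, 1.16% in WT giredestrant and 0.621% in WT vehicle.

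**Figure D2:**
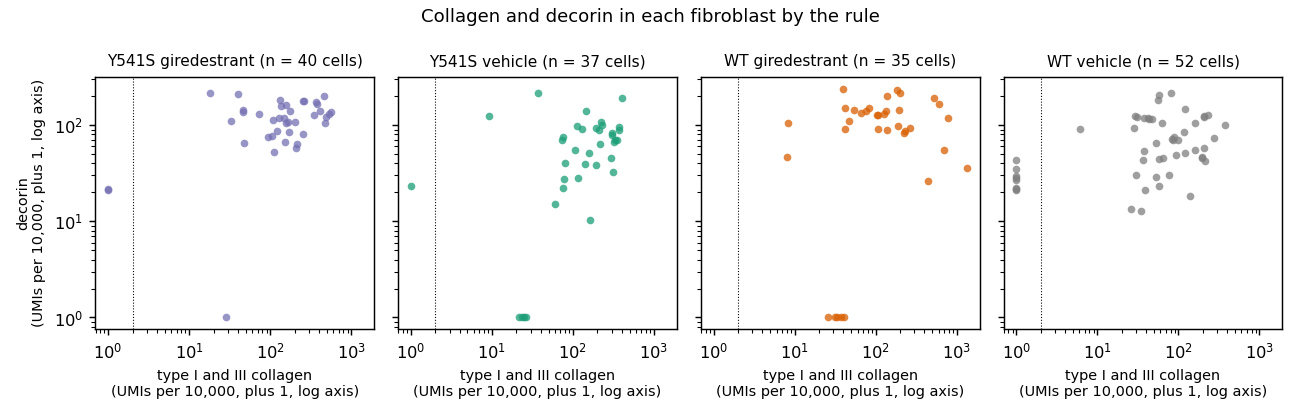
Each point is 1 cell taken by the rule, with type I and III collagen on the horizontal axis and decorin on the vertical axis, both in UMIs per 10,000 plus 1 on log axes. Left of the dotted line (1 UMI per 10,000) lie the 11 cells without collagen, 8 of them in WT vehicle and 0 in WT giredestrant.

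The rule's sum had a median of 265 UMIs per 10,000 in Y541S giredestrant, 221 in Y541S vehicle, 235 in WT giredestrant and 154 in WT vehicle. The lowest cell inside the threshold of 20 had 20.12 and the highest outside it 19.95, with 10 cells between 20 and 25 and 18 between 15 and 20. Of 242 cells past the collagen and decorin sum, the limits on epithelial genes removed 78. Of the cells past a limit, 49 exceeded that on hormone-sensing genes, 41 of them in Y541S vehicle, 30 that on basal keratins and 4 that on secretory genes. The limit of 10 caps Esr1, Prlr, Areg and Foxa1 in every cell described here, so their levels are not a result.

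Genes of connective tissue separated the fibroblasts from the rest. Among 1848 genes with at least 200 UMIs in fibroblasts, 227 were at least 10 times and 92 at least 100 times higher in CPM than in all other cells. Among the 20 highest ratios, in order, were Cilp, Thbs4, Lum, Pi16, Dpt, Dpep1, Col3a1, Mfap4, Col1a1, Mmp3, Col1a2, Inmt, Col5a3, Islr, Mfap5, Clec3b, Adgrd1, Ifi205 and Tnfaip6. These genes follow from the choice of the cells and are given as a description. Thbs4, a thrombospondin of the matrix, rested on 14 cells, while Tnfaip6, which encodes a hyaluronan-binding protein, was found in 149 of 164. Ifi205, an interferon-inducible gene of the Ifi200 family, reached 948 CPM in fibroblasts and 0.790 CPM in other cells.

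Matrix genes made up much of the difference from other cells, which again follows from the choice of cells. At least 10 times the level of the other cells was reached by 7 of 7 fibrillar collagens (3 of them genes of the rule), 19 of 27 matrix glycoproteins and elastic fibre genes and 12 of 17 matrix proteases and inhibitors with at least 20 UMIs in fibroblasts, against 585 of all 8475 genes with as many. Lox and Loxl1, lysyl oxidases that cross-link collagen and elastin, stood at 207 and 478 CPM in fibroblasts and at 0.235 and 0.552 CPM in other cells. Mmp3, the protease stromelysin-1, was at 1381 CPM in fibroblasts and 0.476 CPM in other cells. Contractile and myofibroblast genes did not share this: 0 of 8 with at least 20 UMIs reached 10 times the level of other cells, and all 8 were below it. Acta2, the smooth muscle actin that also marks basal epithelium, was at 149.9 CPM in fibroblasts and 2723 CPM in other cells.

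Signals that fibroblasts send to epithelium were present at lower counts. Igf1 was found in 42.1% of fibroblasts and 0.555% of other cells. Fgf10, which drives mammary bud formation, had 55 UMIs in 22 fibroblasts, at 29.5 CPM against 0.0238 CPM in other cells. Wnt2 had 80 UMIs in 41 cells and stood at 42.8 CPM against 0.0449 CPM. Hgf, the ligand of the epithelial receptor MET, was less restricted, at 98.0 CPM in fibroblasts and 17.2 CPM in other cells. Wnt5a differed little, at 36.4 and 31.4 CPM. Of those with at least 20 UMIs, 8 of 31 growth factors and 11 of 17 chemokines, cytokines and complement genes were at least 10 times higher, among them Il6, at 264 and 3.22 CPM, and Ccl11, an eosinophil chemokine, at 402 and 9.24 CPM.

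Among receptors with at least 20 UMIs, 5 of 22 were at least 10 times higher, among them Pdgfra and Pdgfrb. Nr3c1, the glucocorticoid receptor, was at 158 CPM in fibroblasts and 92.4 CPM in other cells. Pgr, the progesterone receptor, ran the other way, at 32.7 CPM in fibroblasts and 132 CPM in other cells. Of 28 mesenchymal transcription factors with at least 20 UMIs 15 were at least 10 times higher, with Ebf1 at 1461 and 7.52 CPM, Twist1 at 138 and 1.11 CPM and Prrx1 at 237 and 13.2 CPM.

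The cells were not uniform. Clustering the 164 cells by 1000 variable genes gave 7 clusters of 8 to 41 cells, which are called by number, since the same counts made them. Cluster 1 (31 cells, led by Thbs4, Col8a1 and Slpi) had the highest interferon response sum, at 5530 CPM. Cluster 6 (13 cells, led by Cxcl13 and Smpd3, with Pi16 and Sema3c) had the highest adventitial sum, at 18369 CPM. Cluster 4 (41 cells, led by Fabp4, Cadm2 and Tnc) had the highest interstitial sum, at 5866 CPM. Cluster 5 (28 cells, led by Tmtc2, Cmss1 and Dgkb) had the highest fibrillar collagen sum, at 30021 CPM. Cluster 3 (31 cells) was led by Brinp1, Hs3st5 and Robo2, and cluster 2 (12 cells, led by Krt25, Krt28 and Lef1) held all 11 cells without collagen.

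Libraries did not share the clusters evenly. Of the 28 cells in cluster 5, 20 came from Y541S giredestrant, and all 8 cells of cluster 7, with a median of 2933.5 UMIs and led by Prr16, came from WT giredestrant. Cluster 1 held 0 cells of Y541S giredestrant, 9 of Y541S vehicle, 5 of WT giredestrant and 17 of WT vehicle. A cluster filled mainly by 1 library may reflect that library rather than a kind of fibroblast, since each group has a single one, and cluster sizes were not compared.

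**Figure D3:**
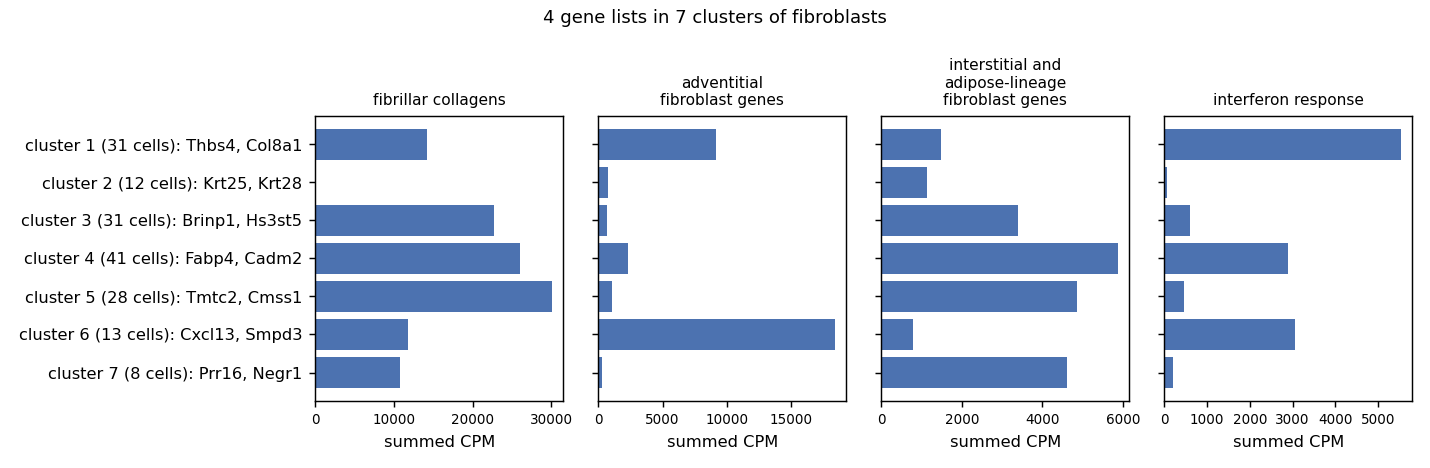
Summed level in CPM of 4 gene lists (1 panel each) in the 7 clusters of the 164 cells, named by their leading genes and drawn as bars from 0. The adventitial sum peaks in cluster 6 at 18369 CPM and the interferon sum in cluster 1 at 5530 CPM, and cluster 2 is near 0 for collagen.

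Libraries were compared on the UMIs summed over their fibroblasts. A gene was well counted with at least 50 UMIs over the pair of libraries, and its log2 ratio was taken relative to the median well-counted gene. A gene was called higher or lower at 2-fold or more on that scale, which is a size and not a test. Between giredestrant and vehicle in Y541S, 12.2% of 2764 well-counted genes were called (4.81% higher and 7.38% lower). Between giredestrant and vehicle in WT, 17.3% of 4023 were called (8.25% higher and 9.02% lower). Of these calls 47.8% were on the higher side, against 35.2% under TMM scaling, which moved the median gene by -0.13 on the log2 scale. Between Y541S and WT, 9.73% of 4235 were called with vehicle (4.53% higher and 5.19% lower) and 15.7% of 2488 with giredestrant (7.36% higher and 8.32% lower). Each library enters 2 of the 4 comparisons, so these are not independent of one another.

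Without the 11 cells lacking collagen the share called between giredestrant and vehicle was 11.2% in Y541S (4.55% higher and 6.67% lower) and 10.5% in WT (5.29% higher and 5.2% lower). Between Y541S and WT it was 5.71% with vehicle (2.94% higher and 2.77% lower) and 15.7% with giredestrant (7.42% higher and 8.31% lower). Comparisons that use WT vehicle, where 8 of those cells lie, therefore moved most. All members of a list are summed over whole fibroblast libraries, so fewer cells with a programme and less RNA of it per cell cannot be told apart except where cells are described.

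Interferon response genes were lower with giredestrant in both genotypes. In Y541S 7 of 8 well-counted members were called lower and 0 higher, and the median of their relative log2 ratios was -2.14, beside 7.38% of all genes called lower. In WT 6 of 9 were called lower and 1 higher, with a median of -1.44, beside 9.02% of all genes. By construction the median over all genes was 0. In the cells with collagen the counts were 7 lower and 0 higher of 8 in Y541S and 7 lower and 1 higher of 9 in WT. The 14 genes of the list summed to 770 CPM in Y541S giredestrant and 3765 CPM in Y541S vehicle, and to 1317 CPM in WT giredestrant and 2837 CPM in WT vehicle. The other cells of those libraries had 206, 257, 338 and 223 CPM, so the order between giredestrant and vehicle was the opposite in the other cells of WT.

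Isg15, a ubiquitin-like protein that is joined to other proteins in antiviral defence, had 35.2 CPM in Y541S giredestrant, 632 in Y541S vehicle, 139 in WT giredestrant and 449 in WT vehicle. It was found in 7 of 40, 24 of 37, 16 of 35 and 24 of 52 fibroblasts of those libraries. The relative log2 ratio of giredestrant to vehicle was -4.09 in Y541S (interval -5.23 to -3.15) and -1.63 in WT (-2.07 to -1.21). In Y541S vehicle 1 cell held 109 of the 297 Isg15 UMIs, and in WT vehicle 1 cell held 90 of 334. Ifit3, an RNA-binding antiviral protein, had 0, 89, 19 and 131 UMIs. Against a floor of 3 counts it was 15.3-fold lower with giredestrant in Y541S. The relative log2 ratio was -3.94 at that floor, and the upper bound of its interval was -3.61.

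The promoters of both genes are shown because interferon-induced transcription is known to act through the letters GAAANNGAAA, to which interferon regulatory factors bind. Capitals mark every match on either strand in the 250 bases before the annotated start (RefSeq, build GRCm38.p6, written 5′ to 3′ in the direction of the gene). The first lies at chr4:156200819-156201068 on the minus strand, where 3 matches overlap one another. The second lies at chr19:34583279-34583528 on the plus strand, where both matches are on the opposite strand and read as the reverse complement.
Isg15: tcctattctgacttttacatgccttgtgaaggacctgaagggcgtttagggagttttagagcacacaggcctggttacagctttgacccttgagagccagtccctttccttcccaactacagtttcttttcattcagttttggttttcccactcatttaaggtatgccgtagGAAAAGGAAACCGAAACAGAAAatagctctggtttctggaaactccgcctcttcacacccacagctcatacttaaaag
Ifit3: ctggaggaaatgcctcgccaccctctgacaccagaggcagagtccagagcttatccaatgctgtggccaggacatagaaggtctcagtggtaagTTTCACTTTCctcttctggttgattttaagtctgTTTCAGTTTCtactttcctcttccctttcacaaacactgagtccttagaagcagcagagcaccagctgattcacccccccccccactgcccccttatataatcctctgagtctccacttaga
Such a match stood in 978 of 32851 RefSeq promoters of that length (2.98%). Of the 14 listed genes 11 had a promoter in the table and 7 of those held a match: Isg15, Ifit3, Ifit1, Bst2, Rsad2, Igtp and Gbp2. A match describes these letters and is not a site that was measured.

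Most other members of the list were also called lower. Ifi27l2a had 277 CPM in Y541S giredestrant, 1344 in Y541S vehicle, 373 in WT giredestrant and 1058 in WT vehicle, with relative log2 ratios of -2.20 in Y541S and -1.44 in WT. Bst2, the tetherin that retains budding virus, gave -1.69 and -1.21, and Irf7, the factor that amplifies the interferon loop, gave -2.08 and -2.48. Rsad2, an enzyme that makes an antiviral nucleotide, was well counted between giredestrant and vehicle only in WT, at -2.40 on 8 UMIs with giredestrant and 83 with vehicle. Oasl2 was called lower in Y541S at -2.23 and not in WT, at -0.77. Ifit1 was not called in either genotype, at -0.92 and -0.32. Gbp2, a guanylate-binding protein induced by interferon gamma, differed in direction: it had 43.0 CPM in Y541S giredestrant and 185 in Y541S vehicle, but 156 in WT giredestrant and 43.0 in WT vehicle. Ifngr1, a receptor chain for interferon gamma, ran from 116 to 125 CPM over the 4 libraries.

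Per cell, the interferon sum had a median of 4.22 UMIs per 10,000 in Y541S giredestrant, 15.7 in Y541S vehicle, 8.97 in WT giredestrant and 8.14 in WT vehicle. The highest cells had 42.0, 192, 61.7 and 188 in the same order, so the cells of all 4 libraries overlapped. At least 10 per 10,000 was reached by 9 of 40, 22 of 37, 17 of 35 and 24 of 52 cells. In WT the medians were close and the highest cells of the libraries were far apart. Over the 153 cells with collagen the medians were 4.62, 19.0, 8.97 and 14.9.

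Inside most clusters with cells of both libraries of a genotype, the interferon sum was also lower with giredestrant. In cluster 1 it was 2390 CPM in 5 cells of WT giredestrant (interval 2072 to 2742) and 6019 CPM in 17 cells of WT vehicle (5712 to 6338). In cluster 4 it was 2676 CPM in 4 cells of Y541S giredestrant (2037 to 3451) and 4099 CPM in 12 cells of Y541S vehicle (3801 to 4415), and 1884 CPM in WT giredestrant and 2390 CPM in WT vehicle. In cluster 3 the values were 195 and 944 CPM in Y541S giredestrant and vehicle. In WT they were 467 CPM with giredestrant (335 to 634) and 631 CPM with vehicle (467 to 834), so the intervals overlapped. Cluster 5 in WT was the exception among clusters 1 and 3 to 6, at 282 CPM with giredestrant and 222 CPM with vehicle on 7 and 8 UMIs. Some of the others rest on 1 vehicle cell: cluster 5 in Y541S, with 18 UMIs of the list, and cluster 6 in WT, with 129. Cluster 1 held no cells of Y541S giredestrant. In cluster 2, which holds the cells without collagen, Y541S had 2 UMIs of the list with giredestrant and 7 with vehicle, at 343 and 223 CPM.

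**Figure D4:**
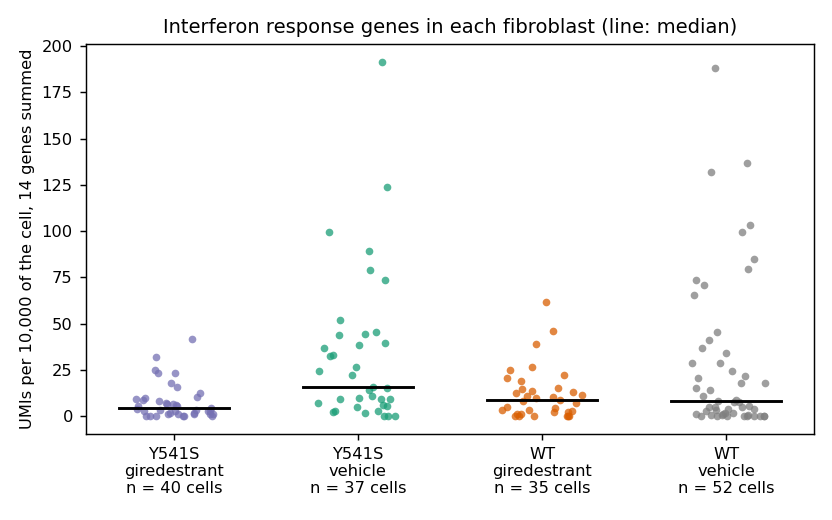
Sum of 14 interferon response genes in each fibroblast, in UMIs per 10,000 of the cell, by library, with a line at the median. The highest cell reaches 42.0 in Y541S giredestrant and 192 in Y541S vehicle, 61.7 in WT giredestrant and 188 in WT vehicle.

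Adventitial genes were lower in Y541S giredestrant than in either of the libraries it was compared with. Against Y541S vehicle 8 of 11 well-counted members were called lower and 0 higher, beside 7.38% of all genes called lower. The median of their relative log2 ratios was -1.66. Against WT giredestrant the count was also 8 lower and 0 higher of 11, with a median of -1.37, beside 8.32% of all genes called lower. Between giredestrant and vehicle in WT, 2 of 12 were called higher and 0 lower, with a median of -0.03, beside 8.25% and 9.02% of all genes. Restricted to cells with collagen, 1 was called higher and 1 lower in WT, with a median of -0.31, beside 5.29% and 5.2% of all genes. The list summed to 1832 CPM in Y541S giredestrant, 5547 in Y541S vehicle, 4420 in WT giredestrant and 4757 in WT vehicle, against 621, 827, 854 and 935 CPM in the other cells. In the cells with collagen the counts were again 8 lower and 0 higher of 11 against Y541S vehicle and against WT giredestrant. Of all genes 6.67% and 8.31% were called lower in those comparisons. Without the cells of highest doublet score 7 members were well counted against Y541S vehicle, and 5 of them were called lower.

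Pi16, a secreted protein that marks adventitial fibroblasts, had 148 CPM in Y541S giredestrant, 602 in Y541S vehicle, 443 in WT giredestrant and 282 in WT vehicle. Its relative log2 ratio of giredestrant to vehicle was -1.94 in Y541S (interval -2.47 to -1.45) and 0.72 in WT (0.42 to 1.02). Ackr3, a scavenger receptor for CXCL12, had 109, 447, 315 and 292 CPM in the same order, a ratio of -1.95 in Y541S. Creb5, a transcription factor, was at 262 CPM in Y541S giredestrant and 957 CPM in Y541S vehicle. Ly6c1 and Ly6a, surface proteins of the Ly6 family whose similar sequences can share reads, gave -1.74 and -1.67. Anxa3, Cd55 and Sema3c were also called lower, at -1.66, -1.35 and -1.20, while Cd34 and Cd248 were not, at -0.79 and -0.67.

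Per cell, the adventitial sum had a median of 7.23 UMIs per 10,000 in Y541S giredestrant, 12.1 in Y541S vehicle, 16.9 in WT giredestrant and 28.7 in WT vehicle, and with collagen 8.47, 12.6, 16.9 and 36.3. The median cell of WT giredestrant was thus below that of WT vehicle, although the sums over all cells were close. The WT vehicle sum includes the 8 cells without collagen, which had 709 CPM of the list and so lower it. In cluster 1 the sum was 5251 CPM in WT giredestrant and 9971 CPM in WT vehicle.

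The sum of adventitial genes differed within cluster 6 as well, at 9850 CPM in 5 cells of Y541S giredestrant (8751 to 11050) and 25393 CPM in 3 cells of Y541S vehicle (23848 to 27012). In cluster 4 it did not, at 1769 and 1657 CPM. Cells with at least 10 UMIs per 10,000 of the list numbered 16 of 40 in Y541S giredestrant, 23 of 37 in Y541S vehicle, 21 of 35 in WT giredestrant and 40 of 52 in WT vehicle.

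Interstitial and adipose-lineage genes ran higher in Y541S giredestrant. Against Y541S vehicle 5 of 10 were called higher and 1 lower, with a median of 1.05, beside 4.81% of all genes called higher. Against WT giredestrant 4 of 11 were called higher and 0 lower, with a median of 0.90, beside 7.36% of all genes called higher. With the 11 cells left out, 5 of 10 were called higher and 1 lower against Y541S vehicle, and 5 of 11 higher and 0 lower against WT giredestrant. The list summed to 5594 CPM in Y541S giredestrant, 2823 in Y541S vehicle, 3113 in WT giredestrant and 2988 in WT vehicle. The other cells had 3097, 2583, 2505 and 4978 CPM, so several of these genes are not particular to fibroblasts.

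Sparcl1, a matrix-associated glycoprotein, had 859 CPM in Y541S giredestrant, 289 in Y541S vehicle, 383 in WT giredestrant and 390 in WT vehicle, a ratio of 1.65 against Y541S vehicle (1.33 to 1.97). Lpl, lipoprotein lipase, had 1562, 770, 814 and 556 CPM, a ratio of 1.10 (0.89 to 1.31). Hsd11b1, the enzyme that regenerates active glucocorticoid, had 246, 95.7, 136 and 117 CPM, a ratio of 1.44. Apoe and Cxcl14 were the other members called higher, at 1.15 and 1.25 (Apoe 0.85 with collagen, under the call), and Ggt5 was called lower, at -1.12. Cxcl14 gave -0.029 without the cells of highest doublet score, and 1 interstitial member of 10 was then called higher. Without cells carrying markers of other types 2 interstitial members of 9 were called higher.

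Col15a1, a basement membrane collagen and interstitial marker, had 1203 CPM in Y541S giredestrant, 653 in Y541S vehicle, 453 in WT giredestrant and 296 in WT vehicle. Its ratio was 1.45 between Y541S and WT with giredestrant (1.18 to 1.72) and 1.13 with vehicle (0.88 to 1.39), where it was 0.84 in the cells with collagen, under the call. Between giredestrant and vehicle it was 0.96 in Y541S and 0.69 in WT, below the call. After thinning to 2000 UMIs it was seen in 76.0%, 56.1%, 45.4% and 40.4% of fibroblasts, and without thinning in 80%, 70.3%, 62.9% and 67.3%. In other cells the thinned share was 0.26% to 0.72%.

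Several matrix genes were higher with giredestrant in WT, and few differed in Y541S. Type I and III collagen and decorin belong to the rule, so the values of those genes are a description. Of the 4 well-counted fibrillar collagens outside the rule 3 were called higher and 0 lower in WT, with a median of 1.06, beside 8.25% of all genes. In Y541S 0 of the 4 were called, with a median of 0.07. The 5 genes outside the rule summed to 2605 CPM in Y541S giredestrant, 2599 in Y541S vehicle, 2650 in WT giredestrant and 1510 in WT vehicle. All 8 fibrillar collagens, with the 3 of the rule, summed to 24215, 21511, 27610 and 10215 CPM in the same order, and 6 of 7 were higher by 2-fold or more in WT. WT vehicle was lowest in both sums, which include its 8 cells without collagen. Those 8 cells held 3 UMIs of the fibrillar collagens, at 17.2 CPM, so they lower both sums. Per cell, on the scale of the per-cell interferon sum, the medians of all 8 genes were 175 in Y541S giredestrant and 160 in Y541S vehicle. In WT they were 128 with giredestrant and 71.7 with vehicle. WT giredestrant thus had the highest sum but not the highest median, and its highest cell reached 1465. In the cells with collagen the WT medians were 128 with giredestrant and 80.8 with vehicle. The lower quartiles there were 57.9 and 57.3, and the upper ones 238 and 165. Over the 153 cells with collagen 1 of the 4 outside the rule, Col27a1, was called higher in WT, with a median of 0.66. Col5a1 and Col5a2, type V collagens that the rule did not use, gave 1.03 and 1.10 in all cells and 0.63 and 0.69 in the cells with collagen.

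Matrix glycoproteins repeated this with fewer calls: 9 of 27 were called higher and 0 lower in WT, with a median of 0.77. Of all genes 8.25% were called higher and 9.02% lower there. In Y541S 1 of 27 was called higher and 3 lower, with a median of 0.15, beside 4.81% and 7.38% of all genes. In the cells with collagen the counts were 6 higher and 2 lower in WT and 1 higher and 3 lower in Y541S. The shares of all genes there were 5.29% higher and 5.2% lower in WT and 4.55% and 6.67% in Y541S. Postn, the matricellular protein periostin, had 4047 CPM in Y541S giredestrant, 3531 in Y541S vehicle, 4478 in WT giredestrant and 900 in WT vehicle. Its ratio between giredestrant and vehicle was 2.38 in WT (2.25 to 2.51) and 0.27 in Y541S (0.16 to 0.39), and in the cells with collagen it was 1.97 in WT. After thinning, Postn was seen in 87.3%, 59.8%, 68.2% and 32.9% of fibroblasts, against 16.2% to 32.8% of other cells. Sparc, a collagen-binding glycoprotein, had a ratio of 1.41 in WT and 0.99 in the cells with collagen, just under the call.

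**Figure D5:**
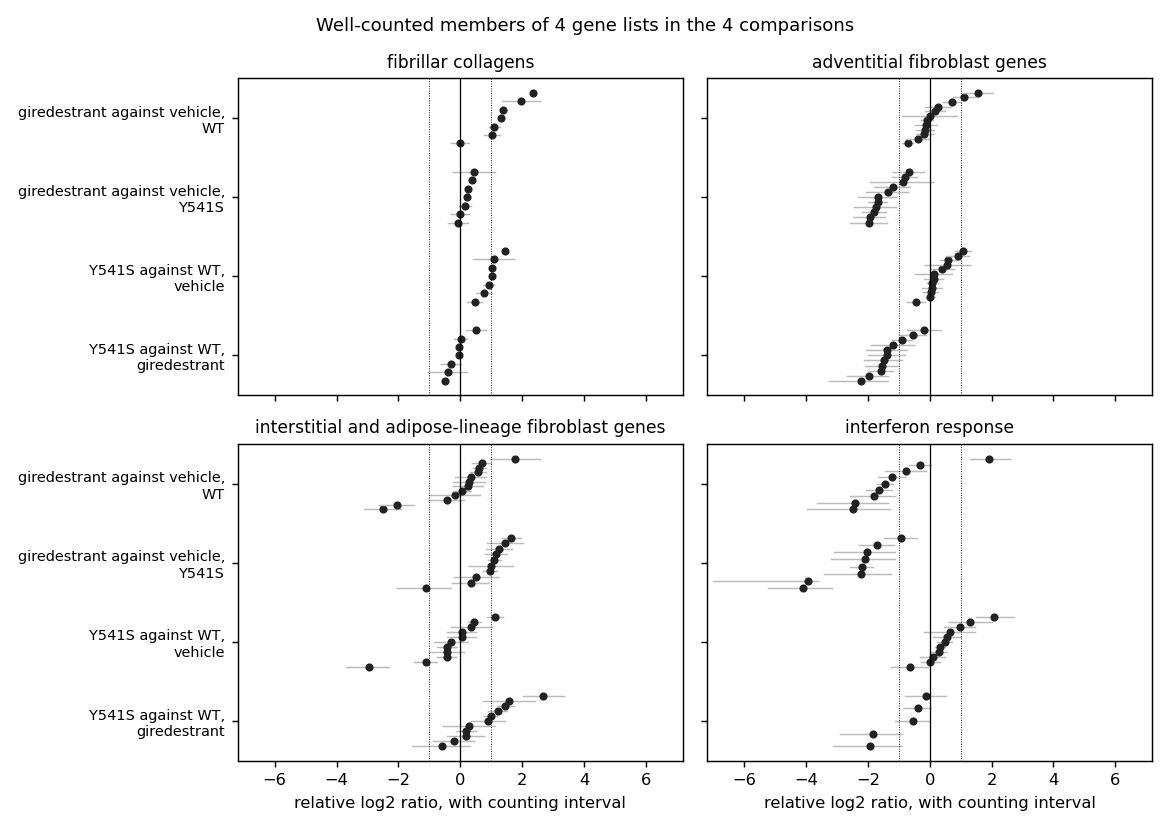
Relative log2 ratio of each well-counted member of 4 gene lists in the 4 comparisons, with its counting interval (grey line, cut at the axis limits). Dotted lines mark the 2-fold call, and 3 of the 7 fibrillar collagens are genes of the rule. Adventitial members lie left of 0 in both comparisons that use Y541S giredestrant, and interferon members lie left of 0 with giredestrant in both genotypes except for 1 in WT.

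Tnc, tenascin C, a glycoprotein of remodelling matrix, was called in opposite directions in the genotypes. It had 23.4 CPM in Y541S giredestrant, 693 in Y541S vehicle, 418 in WT giredestrant and 17.5 in WT vehicle. Single cells carried most of it: 205 of 326 UMIs in Y541S vehicle and 106 of 166 in WT giredestrant. Fbn2, a fibrillin of elastic fibres, showed the same pattern at 74.2, 262, 131 and 28.2 CPM. Fn1, fibronectin, had 1465, 2472, 2282 and 1000 CPM, called higher in WT at 1.26 (0.86 with collagen, under the call) but not lower in Y541S, at -0.68.

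Binding proteins and antagonists of growth factors were called higher with giredestrant in 8 of 15 cases in WT and lower in 1, with a median of 1.16, beside 8.25% of all genes called higher and 9.02% lower. In Y541S 1 of 13 was called higher and 0 lower, beside 4.81% and 7.38% of all genes. Among cells with collagen 7 of 15 were called higher and 0 lower in WT, beside 5.29% and 5.2% of all genes, and 0 higher and 1 lower of 13 in Y541S. Igfbp4, which binds IGFs, had 746 CPM in Y541S giredestrant, 445 in Y541S vehicle, 980 in WT giredestrant and 337 in WT vehicle, a ratio of 1.61 in WT (1.38 to 1.84). Gas1, a surface co-receptor for hedgehog ligands, had 500, 291, 408 and 83.3 CPM, a ratio of 2.36 in WT. Sfrp2, a secreted WNT modulator, was called higher in both genotypes, at 1.03 in Y541S and 1.63 in WT, but gave 0.97 in Y541S in the cells with collagen, under the call. Igfbp3 had 3, 4, 50 and 1 UMIs, so its ratio of 6.62 in WT rests on 1 UMI in vehicle (interval 4.08 to 11.95). Fst, the activin antagonist follistatin, was the member called lower in WT, at 83.1 CPM with giredestrant and 175 CPM with vehicle.

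Growth factors split within the list, with 3 higher and 2 lower of 13 in Y541S and 5 higher and 2 lower of 16 in WT. Over all genes 12.2% were called in Y541S and 17.3% in WT. With the 11 cells left out, the counts were 3 higher and 2 lower of 12 in Y541S and 4 higher and 3 lower of 16 in WT. Hgf had 293 CPM in Y541S giredestrant, 31.9 in Y541S vehicle, 27.7 in WT giredestrant and 110 in WT vehicle, from 18, 10, 7 and 9 cells. Its ratio was 3.28 in Y541S (2.46 to 4.18) and -1.92 in WT (-2.98 to -1.01). Vegfa, the endothelial growth factor, was called higher in Y541S at 1.66, and Tgfb2 lower at -2.83 on 4 UMIs in Y541S giredestrant. Igf1 was at 156, 174, 209 and 71.2 CPM and was called higher in WT at 1.62. Angptl4, an inhibitor of lipoprotein lipase, was called lower in WT at -2.70.

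Chemokines, cytokines and complement genes were called in both directions, with 2 higher and 1 lower of 12 in Y541S and 3 higher and 2 lower of 14 in WT, beside 12.2% and 17.3% of all genes called either way. In the cells with collagen they numbered 1 higher and 2 lower in Y541S and 3 higher and 3 lower in WT. Il6 was called higher in WT at 1.92, and C3, the central complement component, at 1.43. Ccl7, a monocyte chemokine, was called lower in Y541S at -2.35 on 7 and 69 UMIs.

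Matrix proteases and inhibitors were called higher in 2 of 16 cases in Y541S and 3 of 16 in WT, and lower in 0. Of all genes 4.81% were called higher and 7.38% lower in Y541S, and 8.25% and 9.02% in WT. In the cells with collagen 1 protease or inhibitor was called higher and 0 lower in Y541S and 1 higher and 1 lower in WT. Mmp3 had 2719 CPM in Y541S giredestrant, 995 in Y541S vehicle, 1217 in WT giredestrant and 1252 in WT vehicle, a ratio of 1.53 in Y541S (1.36 to 1.70) and 0.03 in WT. Ctsk, the collagen-degrading cathepsin K, was called higher in WT at 1.45. Among 20 well-counted receptors in each genotype, Tgfbr2 was called lower and none higher in Y541S, at -1.32, while in WT Fgfr1 was called lower, at -1.16, and Osmr higher. Restricted to cells with collagen, the receptors called were Tgfbr2 in Y541S and Fgfr1 in WT. Of all genes 12.2% were called either way in Y541S and 17.3% in WT, and 11.2% and 10.5% in the cells with collagen.

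Steroid response genes, a list of estrogen, progesterone and glucocorticoid targets, showed no shared direction. In Y541S 1 of 16 was called higher and 1 lower with giredestrant, and in WT 2 of 18 higher and 2 lower, with medians of -0.05 and 0.05. Among cells with collagen 1 of 16 was called higher and 1 lower in Y541S, and 2 of 17 higher and 1 lower in WT. The shares of all genes called either way were 12.2% in Y541S and 17.3% in WT, and 11.2% and 10.5% with collagen. Sgk1, a kinase induced by corticosteroids, had 176 CPM in Y541S giredestrant, 334 in Y541S vehicle, 131 in WT giredestrant and 460 in WT vehicle, called lower in WT at -1.74 (-2.19 to -1.32). Fkbp4, a receptor co-chaperone, was called lower in WT at -1.65, but gave 0.18 in the cells with collagen. Pgr had 1, 12, 5 and 43 UMIs and was not well counted between giredestrant and vehicle. Between Y541S and WT with vehicle it was called lower in Y541S, also in the cells with collagen. In that comparison 1 of 19 list members was called higher and 2 lower, beside 4.53% and 5.19% of all genes.

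The genes furthest from the median gene between giredestrant and vehicle in Y541S included several that were not particular to fibroblasts. The 8 furthest above were Mir6236, Cmss1, Gm42418, Cdk8, Hgf, Camk1d, Lars2 and AY036118. Gm42418, a predicted gene that overlaps ribosomal RNA sequence, had 40785 CPM in fibroblasts of Y541S giredestrant and 5162 CPM in those of Y541S vehicle, and 16550 and 2449 CPM in the other cells. Mir6236 had 4543 and 100 CPM in fibroblasts and 1520 and 53 CPM in the other cells. Their part in the other ratios was not tested. The 8 furthest below were Thbs4, Tnc, Ifit3, Serpina3n, Isg15, Adamts19, Sulf1 and Igfbp2. Thbs4 had 0 and 96 UMIs, 16.5-fold lower against the floor of 3 counts (upper bound of the log2 interval -3.72), and 1 cell held 60 of the 96. Single cells also held 247 of 423 Sulf1 UMIs and 121 of 146 Igfbp2 UMIs in Y541S vehicle.

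In WT the 8 furthest above were Nkain2, Tnc, Cthrc1, Slpi, Il1rapl1, Smpd3, Tgfbi and Cadm2. Cthrc1, a secreted protein of collagen-producing cells, had 161 UMIs in 13 cells with giredestrant and 14 UMIs in 5 cells with vehicle. Slpi had 87 and 7 UMIs, and all 87 lay in 1 cell. Cadm2 had 74 of its 78 UMIs in 1 cell. The 8 furthest below were Krt25, Krt28, Brinp1, Top2a, Stmn1, Hmgb2, Fabp5 and Lef1. Without the cells lacking collagen, only Brinp1 was still called, and 1 cell of WT vehicle held all 116 of its UMIs.

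Between Y541S and WT with vehicle, several matrix glycoproteins were higher in Y541S. Of the 4 fibrillar collagens outside the rule 1, Col27a1, was called higher and 0 lower, with a median of 0.84, beside 4.53% of all genes called higher, and 0 were called in the cells with collagen. Matrix glycoproteins were called higher in 10 of 27 cases and lower in 0, with a median of 0.79. In the cells with collagen 8 were called higher, beside 2.94% of all genes. Postn gave 1.96 (1.83 to 2.09) and Abi3bp 1.30 (1.12 to 1.48). Thbs2, a thrombospondin that binds matrix proteases, had 619 CPM in Y541S and 247 CPM in WT, a ratio of 1.31. Mgp, matrix Gla protein, which limits calcification, had 902 CPM in Y541S and 324 CPM in WT.

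Outside the matrix, interferon response genes were called higher in 2 of 11 cases, Gbp2 and Usp18, with a median of 0.48, and adventitial genes in 1 of 12, Pi16, with a median of 0.13. In the cells with collagen the counts were 1 of 11, Gbp2, and 0 of 12. Of all genes 4.53% were called higher, and 2.94% in the cells with collagen. Runx2, a transcription factor of the osteoblast lineage, had 153 CPM in Y541S and 26.9 CPM in WT, a ratio of 2.50. Cxcl10, an interferon-induced chemokine, had 515 CPM in Y541S and 55.1 CPM in WT, and 1 cell of Y541S held 111 of the 242 UMIs. Fabp4, a fatty acid carrier of the adipose lineage, had 42.5 CPM in Y541S and 327 CPM in WT, a ratio of -2.95, with 87 of the 243 WT UMIs in 1 cell. Krt25, Krt28, Fabp5, Lef1, Slc16a7 and Dlx2 were among the 8 furthest below and were not called in the cells with collagen. Serpina3n, Igfbp2 and Lhfpl2 were among the 8 furthest above.

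Between Y541S and WT with giredestrant, immediate early genes were lower in Y541S. Of 16 such genes 6 were called lower and 1 higher, with a median of -0.53, beside 8.32% of all genes called lower, and the counts were the same in the cells with collagen. Fos, a subunit of the AP-1 factor, had 613 CPM in Y541S and 2355 CPM in WT, a ratio of -1.90 (-2.15 to -1.66). Jun, its partner, had 727 CPM in Y541S and 2169 CPM in WT, and Atf3, a stress-induced factor, had 113 and 562 CPM. Hspa1b, a heat shock protein whose near-identical copy Hspa1a can share its reads, was the member called higher, at 1.57. The whole list summed to 11492 CPM in fibroblasts of Y541S giredestrant, 12798 in Y541S vehicle, 18054 in WT giredestrant and 12700 in WT vehicle, against 6264, 6882, 11746 and 7126 CPM in the other cells, so WT giredestrant was highest in both.

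Of 19 well-counted receptors 3 were called higher and 0 lower in Y541S with giredestrant, and of 10 collagens outside the fibrillar list 3 were called higher and 1 lower, beside 7.36% of all genes called higher and 8.32% lower. The counts were the same in the cells with collagen. Col4a1, a chain of type IV collagen, had 2191 CPM in Y541S and 579 CPM in WT with giredestrant, a ratio of 1.96, and Col4a2 had 1082 and 373 CPM. Thbs1 had 1254 and 272 CPM, a ratio of 2.24, with 60 of the 108 WT UMIs in 1 cell. Pdgfra had 766 and 300 CPM, a ratio of 1.39 (1.06 to 1.73), and Fgfr1 had 1000 and 307 CPM. None of the 4 fibrillar collagens outside the rule was called, with a median of -0.14. Rgcc, a regulator of the cell cycle, was among the 8 furthest above, at 930 CPM in Y541S and 73.0 CPM in WT. Thbs4, with 0 UMIs in Y541S and 281 in WT, was furthest below, at 58.7-fold against the floor (upper bound of the log2 interval -5.57). In WT 1 cell held 167 of those UMIs.

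Genes of the G2/M phase were counted in few fibroblasts. At least 10 UMIs per 10,000 of 10 G2/M genes were reached by 1 cell in Y541S giredestrant, 3 in Y541S vehicle, 0 in WT giredestrant and 5 in WT vehicle. All 5 of the WT vehicle cells were among those without collagen, while the 3 of Y541S vehicle had collagen.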

How the data were processed

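The data were deposited single-cell matrices, 1 per library, whose raw counts of UMIs for each gene in each barcode the authors made with Cell Ranger 6.0.1, per the file headers. The genome was GRCm38, per the submitters' processing notes, and the annotation release and the use of intronic reads are not given in the sources used here. The deposited feature and barcode lists name the 52636 genes and the cells. Of 30062 barcodes 25950 were kept by the limits in the report, and no doublet was removed, because the caller's automatic threshold did not work in 1 library.

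UMIs were summed per library over the 164 cells and scaled to CPM. Ratios carry exact conditional binomial 95% intervals and levels exact Poisson ones, which cover counting error only, and shares carry Clopper-Pearson intervals. With 1 library per group no p-value was computed. A gene with 0 UMIs in 1 library was set to a floor of 3 counts. Thinned shares are the expected share of cells with a UMI if 2000 UMIs were drawn from each, without shallower cells. Clusters came from Scanpy 1.11.5 with 10 principal components, 10 neighbours and the Leiden method of igraph 0.11.9 at resolution 0.6. The ratios were checked on simulated counts, drawn for each gene with the counting error that the intervals assume. UMIs gathered in single cells were not simulated, so the check does not cover them. Other tools were Python 3.11.15, NumPy 2.4.6, SciPy 1.17.1 and pandas 2.3.3.

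The members, gene lists and comparisons were chosen with earlier results of these data known. Named genes were the list and marker members, the 20 highest ratios of fibroblasts to other cells among genes with at least 200 UMIs, and in each comparison the 8 well-counted genes furthest above and below by the interval bound nearest 0, if at least as high in fibroblasts as in other cells. The leading genes of clusters with at least 50 UMIs were named too. A few genes that this rule names are not reported here. The setting without cells lacking collagen, and that without each gene's top cell, were added after the data were seen.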

Additional observations from a re-analysis of the deposited data

Results flagged for a closer look

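In the genes described here, 14 were called in opposite directions by giredestrant against vehicle in the genotypes. The difference between genotypes was not tested, each value compares single libraries, and of 2713 genes well counted in both genotypes 42 were called in opposite directions and 43 in the same direction. Ratios below are relative log2 ratios of giredestrant to vehicle.

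Matrix and secreted proteins made up most of them, but the genes described here were chosen largely through gene lists rich in such proteins. The share of such proteins among the opposite calls is therefore not a result. Tnc gave -4.81 in Y541S and 4.65 in WT, Thbs4 -4.05 (against the floor of 3 counts) and 1.16, Fbn2 -1.74 and 2.28, Cthrc1 -1.08 and 4.5, and Igfbp2 -2.91 and 1.65. Sema3c gave -1.20 in Y541S and 1.12 in WT, and in the cells with collagen the WT value was 0.71. The WT value of Thbs4 was 0.75 there, so both genes fell under the call.

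Hgf, the growth factor for epithelium, gave 3.28 in Y541S and -1.92 in WT. The chemokines differed from each other: Cxcl10 gave -1.38 in Y541S and 2.74 in WT, and Cxcl14 gave 1.25 and -2.48. Gbp2, of the interferon list, gave -2.03 in Y541S and 1.93 in WT.

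Rgcc gave 1.12 in Y541S and -2.02 in WT, and Tob2, an antiproliferative regulator, gave 2.03 and -1.30. Cadm2, an adhesion molecule, gave -3.29 and 3.17, with 74 of its 78 UMIs in WT giredestrant in 1 cell. Acta2 gave 1.06 in Y541S and -2.05 in WT, but -2.76 in Y541S in the cells with collagen, so its opposite directions rest on 3 cells without collagen.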

How the results depend on the processing

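No paired analysis was possible because each group has 1 library. Of 190 alternative values of the main results 165 stayed within their limits and 25 did not; the cause was tested in none beyond the change in cells or genes itself. Calls numbered 337 between giredestrant and vehicle in Y541S, 695 in WT, 412 between Y541S and WT with vehicle and 390 with giredestrant. With at least 20 UMIs per gene they were 993, 1454, 1065 and 961, and with at least 200 UMIs 70, 150, 92 and 72. A collagen and decorin threshold of 40 left 357 calls in WT and 234 between genotypes with vehicle, and leaving out cells without collagen left 363 and 206. Fibrillar collagens called higher in WT, 3 of the 7 being genes of the rule, numbered 2 without those cells. Interferon genes called lower in Y541S numbered 11 with at least 20 UMIs. Adventitial genes called lower in Y541S numbered 5 of 7 well counted without the highest doublet scores. Interstitial genes called higher in Y541S numbered 9 with at least 20 UMIs, 2 without cells carrying markers of other types and 1 without the highest doublet scores. Shares at a threshold of 10 were 0.719% in Y541S giredestrant and 1.09% in WT vehicle, and without the highest doublet scores 0.324% in Y541S giredestrant. Col15a1 thinned to 1000 UMIs was seen in 57.3% of cells in Y541S giredestrant, 36.5% in Y541S vehicle, 25.1% in WT giredestrant and 24.98% in WT vehicle. Cxcl14 in Y541S gave -0.029 without the highest doublet scores. Values of named genes and of well-counted members of the main lists, called or not, were also compared with the reported ones. Weighting each cell alike kept 122 of 178 such values within their counting interval, and leaving out each gene's top cell kept 138 of 167. Genes at least 10 times higher than in other cells numbered 175 to 211 when 1 library was left out.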
